A study of Homo sapiens with 12 samples.

Results

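The 10 genes described here encode the main cytosolic and mitochondrial heat shock proteins and the co-chaperones that work with them. They are HSPA1A, HSPA1B, HSPA8, DNAJB1, HSPH1, HSP90AA1, HSPB1, BAG3, HSPD1 and HSPE1. They were taken by symbol from the 26334 genes of the count tables, with earlier results of these data known. All 10 passed the filter on low counts, as did 15352 genes in all.

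RNA was sequenced from A549 cells, a human lung adenocarcinoma line. In 2 of the 4 groups the cells carried a control shRNA (shControl) and in the others an shRNA against RNF113A (shRNF113A), a ubiquitin ligase that is also a subunit of the spliceosome. All cells had been infected with lentivirus and selected for 4 days with 1 µg/ml puromycin, and each shRNA was used either in untreated cells or in cells given Cisplatin, a drug that crosslinks DNA. The labels give 25 µg/ml Cisplatin for 20 h. The paper gives the dose of its other Cisplatin experiments in molar units and mostly a longer time, so the unit and time of this treatment are uncertain. There were 3 replicates per group, 12 libraries in all, each from bulk RNA of the same line. The labels give each shRNA by its name only, without its sequence, and they do not say whether equal replicate numbers mark a shared culture, so the p-values below measure the spread between these samples. The comparisons address how Cisplatin and RNF113A depletion change these genes and whether the Cisplatin effect depends on RNF113A.

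Heat shock proteins bind unfolded polypeptides and keep them from clumping. The HSP70 proteins do so in cycles of ATP hydrolysis that J-domain proteins such as DNAJB1 start and nucleotide exchange factors such as HSPH1 and BAG3 end, HSP90 finishes the folding of kinases and receptors, small heat shock proteins such as HSPB1 hold unfolded clients without ATP, and HSPD1 with its lid HSPE1 forms the folding chamber of mitochondria. Many of their genes are switched on by the transcription factor HSF1, which binds heat shock elements, arrays of the unit GAA and its reverse TTC.

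Such arrays were searched in the 250 bases before each RefSeq start site on build GRCh38.p14, as units that alternate between GAA and TTC and begin 5 bases apart, so that a minimal array of 2 units reads GAANNTTC or TTCNNGAA on either strand. Of 35116 promoters in RefSeq, 11.6% held at least 2 units and 0.441% at least 3. Of the 14 start sites of the 10 genes, 7 held at least 2 units and 3 held at least 3. The 7 sites belonged to 7 genes, and the 3 to HSPA8, HSP90AA1 and HSPD1. HSPH1, BAG3 and HSPE1 had none within these 250 bases. The stretches that hold the units are shown 5′ to 3′ on the strand of the gene, with the units in capitals, as the known kind of site through which HSF1 acts on these genes.
HSPA1A, chr6:31815417-31815464, plus strand: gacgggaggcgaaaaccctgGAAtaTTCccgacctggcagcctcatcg
HSPA1B, chr6:31827613-31827660, plus strand: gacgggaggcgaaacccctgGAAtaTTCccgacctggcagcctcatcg
HSPA8, chr11:123062159-123062211, minus strand: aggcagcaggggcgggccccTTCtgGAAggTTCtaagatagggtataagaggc
DNAJB1, chr19:14518417-14518464, minus strand: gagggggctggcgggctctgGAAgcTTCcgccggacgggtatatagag
HSP90AA1, chr14:102087100-102087152, minus strand: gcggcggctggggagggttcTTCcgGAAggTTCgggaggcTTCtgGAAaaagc
HSPB1, chr7:76302471-76302518, plus strand: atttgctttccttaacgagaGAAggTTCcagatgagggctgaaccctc
HSPD1, chr2:197500048-197500090, minus strand: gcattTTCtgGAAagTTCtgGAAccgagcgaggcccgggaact
The array of HSPA8 began 55 bases before its start, and another of 3 units began 230 bases before it. That of DNAJB1 began 47 bases before its start with another at 77, and those of HSPA1A and HSPA1B began 106 and 105 bases before theirs. The 250-base promoters of HSPA1A and HSPA1B were identical at 235 aligned bases (94.4%). The 4 units of HSPD1 precede the start site at 197499840, but they lie downstream of its other start at 197500274. That other start faces the start of HSPE1, at 197500379, at a distance of 105 bases. The same 4 units lie upstream of the HSPE1 start, outside its searched window, which begins at 197500129. All these arrays are matches of letters and not measured binding.

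The libraries held from 26220526 to 45721152 read pairs within genes, and the 10 genes took 0.653% to 0.841% of them. The targeted transcript RNF113A stood at 19.9 ± 0.397 CPM (the usual unit of counts scaled to library size, here with TMM, SD, n = 3) in untreated shControl cells and 15.98 ± 0.772 in untreated shRNF113A cells, and at 29.4 ± 1.95 and 26.7 ± 2.88 with Cisplatin. Its depletion was called in untreated cells (log2 fold change −0.31, SE 0.092, edgeR adjusted p = 0.0247) and not in Cisplatin-treated cells (−0.14, SE 0.0907, edgeR adjusted p = 0.233). The 5 epithelial markers, 4 keratins and EPCAM, were called lower with Cisplatin for 3 genes in shControl cells and 4 in shRNF113A cells, and 2 were called higher with depletion in untreated cells. EPCAM had a mean of 10.3 CPM in untreated shControl cells and 92.3 CPM in untreated shRNF113A cells (log2 fold change 3.16, edgeR adjusted p = 0.000166), and KRT19 rose by 1.75 on the log2 scale. The 5 markers summed to 8320 to 14800 CPM in untreated shControl cells, 4560 to 6550 with Cisplatin, 14400 to 15800 in untreated shRNF113A cells and 6480 to 6790 with both. The 7 markers of leucocytes, endothelium and fibroblasts summed to 33.8 to 80.3 CPM over all libraries, and 5 of them failed the filter on low counts. The other 2 were called with depletion in untreated cells, COL1A1 lower (log2 fold change −1.71, edgeR adjusted p = 0.0438) and CD68 higher (0.48, edgeR adjusted p = 0.00801). The part of these shifts in the results was not tested. In shControl cells replicate 2 was low for many of the 10 genes. Among the untreated libraries it was the lowest of 3 for 9 of the 10 genes. Its median there was 0.799 times the mean of the other libraries. With Cisplatin it was the lowest for 7 of 10 (median 0.859). How often it was the lowest over all genes was not counted, so a shift of the whole library cannot be told apart from one of these genes.

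Set per kb of exon the levels in untreated shControl cells spanned a wide range. HSP90AA1, the stress-inducible cytosolic HSP90, led with 916.5 ± 86.8 CPM per kb (SD, n = 3), and HSPA8, the constitutive HSP70, followed with 614.8 ± 71.9. The mitochondrial chaperonin HSPD1 reached 405.9 ± 61.3 and HSPB1 189.8 ± 14.0. HSPH1 (70.2 ± 2.28), HSPE1 (62.9 ± 8.11) and DNAJB1 (57.4 ± 8.30) formed a group in which neighbours overlapped between libraries. BAG3 lay lower at 33.7 ± 7.07, and the stress-inducible HSP70 genes HSPA1A (20.9 ± 2.70) and HSPA1B (14.7 ± 2.09) had the lowest values. Each other neighbour in this order was apart in all 3 libraries. Part of the order turned with the length used. HSPE1 received few STAR counts, as shown further on, and most of the sequence of HSPA1A and HSPA1B occurs in both genes. Of the 73-base windows of the exons, 73 being the length of the trimmed reads, 72.9% in HSPA1A and 70.3% in HSPA1B occurred more than 1 time in the genome, the same 1720 windows being shared by these 2 genes. Read pairs that fit both copies are not assigned to either gene. The values of HSPA1A and HSPA1B thus come from pairs with at least 1 mate on sequence that tells the genes apart. Set per 1000 windows found once in the genome, HSPA1A had 79.4 ± 10.3 CPM (SD, n = 3) and HSPA1B 51.0 ± 7.23, against 39.9 ± 8.37 for BAG3 and 69.2 ± 10.0 for DNAJB1. On this scale HSPA1A stood above DNAJB1 in its mean, and BAG3 took the lowest place. The scale is rough, since a read pair needs only 1 mate on such a window and windows across exon junctions were left out. It can set HSPA1A and HSPA1B too high, so their place against DNAJB1 and BAG3 stays uncertain. With HTSeq counts HSPE1 had 327 ± 24.5 CPM per 1000 such windows and stood above HSPB1 (278 ± 23.8). The order of HSP90AA1, HSPA8 and HSPD1 was the same on all these scales. The share was 17.6% in HSPD1, 8.72% in HSPB1, 8.22% in HSP90AA1, 5.53% in HSPE1, 3.85% in HSPA8 and at most 0.072% in DNAJB1, HSPH1 and BAG3.

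**Figure D1:**
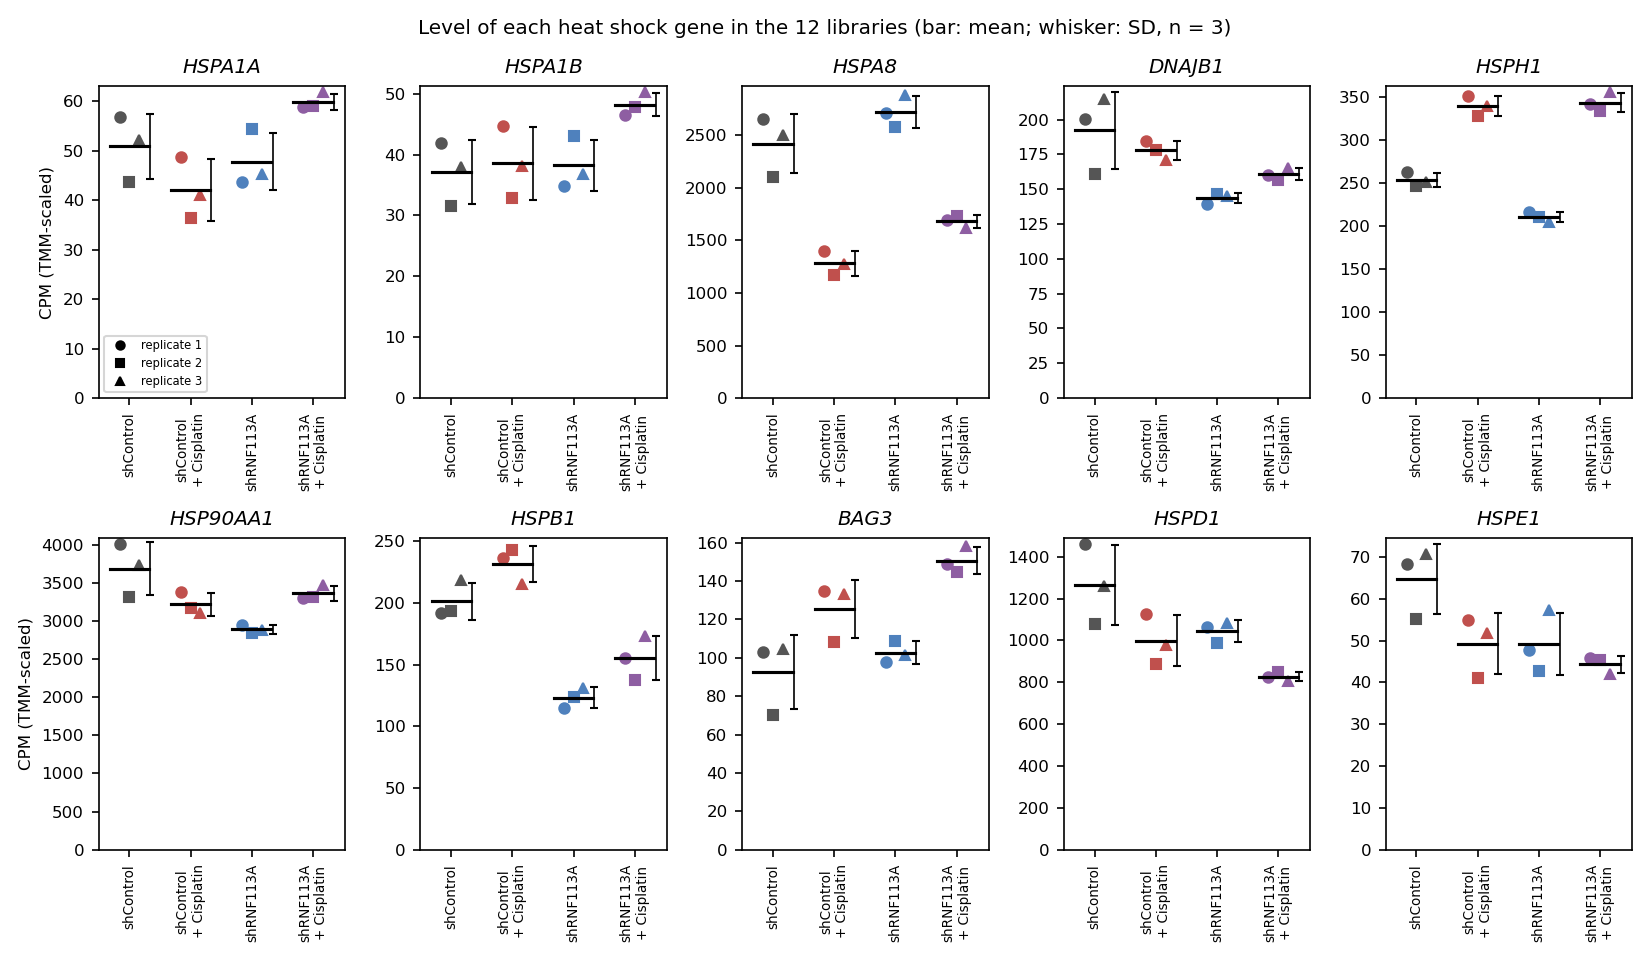
Level of each of the 10 genes in CPM (TMM-scaled, linear axes from 0) in each of the 12 libraries, by group, with markers for the 3 replicates, a bar for the mean and a whisker for the SD. HSPA8 sits lower and HSPH1 higher in every Cisplatin-treated library than in the untreated libraries of the same shRNA, and HSPB1 sits lower in every shRNF113A library than in the shControl libraries of the same treatment.

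With Cisplatin HSPA8 fell in both backgrounds, while the nucleotide exchange factors HSPH1 and BAG3 rose in both. The inducible HSPA1A and HSPA1B were called higher in RNF113A-depleted cells only by some of the fits, as given below. No gene of the 10 moved by 2-fold or more. In shControl cells 2 of the 10 genes were called higher and 3 lower, where 28.0% and 27.0% of all genes tested were, and in shRNF113A cells 6 were called higher and 2 lower, where 32.4% and 27.8% were. The groups did not overlap for 4 of the 10 genes in shControl cells and 9 in shRNF113A cells, against 56.1% and 74.2% of all genes. In the model of drug and depletion without interaction, 3 of the 10 rose and 3 fell with Cisplatin, where 66.8% of all genes were called. As the libraries are bulk RNA, a lower level per cell and fewer cells with the transcript cannot be told apart.

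HSPA8 (chr11:122928197-122933938 on hg19, minus strand) stood at 2652, 2105 and 2508 CPM in replicates 1, 2 and 3 of untreated shControl cells and at 1403, 1170 and 1272 CPM with Cisplatin. In shRNF113A cells it stood at 2715, 2580 and 2884 CPM untreated and at 1696, 1736 and 1617 CPM with Cisplatin. Every treated library lay below every untreated one. The log2 fold change was −0.92 in shControl cells (SE 0.0993, edgeR adjusted p = 8.35e-06) and −0.70 in shRNF113A cells (SE 0.0989, edgeR adjusted p = 6.66e-05). Both calls held in all 12 fits made without 1 of the libraries.

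HSPH1 (chr13:31710762-31736064, minus strand), an HSP110 protein that recharges HSP70 with ATP, moved the other way. Its levels were 262.8, 246.7 and 251.7 CPM in untreated shControl cells and 352, 329 and 340 CPM with Cisplatin. In shRNF113A cells they were 216, 211 and 205 CPM untreated and 342, 334 and 356 CPM with Cisplatin. The treated groups lay at like levels in both backgrounds, whereas the untreated shRNF113A libraries lay below the shControl ones. The Cisplatin log2 fold change was 0.42 in shControl cells (SE 0.0617, edgeR adjusted p = 9.95e-05) and 0.71 in shRNF113A cells (SE 0.0619, edgeR adjusted p = 1.24e-06). BAG3 (chr10:121410882-121437331, plus strand), which joins HSP70 to small heat shock proteins and to autophagy, stood at 103, 70.1 and 105 CPM in untreated shControl cells and at 135, 108 and 133 CPM with Cisplatin. In shRNF113A cells BAG3 stood at 97.7, 109 and 101 CPM untreated and at 149, 145 and 158 CPM with Cisplatin. Both BAG3 rises were called (log2 fold change 0.44, SE 0.136, edgeR adjusted p = 0.016 in shControl cells, and 0.55, SE 0.136, edgeR adjusted p = 0.00379 in shRNF113A cells), with no overlap between treated and untreated libraries. The calls of HSPH1 and BAG3 held in all 12 fits made without 1 library.

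The inducible HSP70 genes HSPA1A (chr6:31783291-31785723, plus strand) and HSPA1B (chr6:31795512-31798031, plus strand) were called only in shRNF113A cells, a contrast between backgrounds that is tested further on. HSPA1A stood at 43.7, 54.3 and 45.4 CPM in untreated shRNF113A cells and at 58.8, 59.0 and 61.7 CPM with Cisplatin (log2 fold change 0.33, SE 0.124, edgeR adjusted p = 0.0386). In shControl cells it stood at 56.7, 43.7 and 52.2 CPM untreated and at 48.8, 36.4 and 41.1 CPM with Cisplatin, groups that overlapped (log2 fold change −0.27, SE 0.124, edgeR adjusted p = 0.079). Each treated library lay below the untreated one of the same number, and HSPA1A was called lower with the replicate block among shControl libraries (edgeR adjusted p = 0.0127) and with HTSeq counts (edgeR adjusted p = 0.0445). HSPA1B rose in shRNF113A cells from 34.9, 43.0 and 36.8 CPM to 46.5, 47.9 and 50.3 CPM (log2 fold change 0.34, SE 0.13, edgeR adjusted p = 0.0404). In shControl cells it had 42.0, 31.5 and 37.9 CPM untreated and 44.8, 32.8 and 38.1 CPM with Cisplatin (log2 fold change 0.05, SE 0.129, edgeR adjusted p = 0.744). Among the 12 fits made without 1 library HSPA1A was called in 6 and HSPA1B in 5, the calls being lost without any 1 Cisplatin-treated shRNF113A library, without replicate 1 or 3 of untreated shRNF113A cells or without replicate 3 of Cisplatin-treated shControl cells, and for HSPA1B also without replicate 3 of untreated shControl cells. In shRNF113A cells both calls were also lost with DESeq2 (adjusted p = 0.063 for HSPA1A and 0.064 for HSPA1B), with HTSeq counts (edgeR adjusted p = 0.0519 and 0.0525) and with every gene that had a count kept (edgeR adjusted p = 0.0505 and 0.0522). DNAJB1 (chr19:14625582-14640582, minus strand), the J-domain partner of these proteins, was not called with Cisplatin in either background (log2 fold change −0.11, SE 0.0917, edgeR adjusted p = 0.319 in shControl cells, and 0.16, SE 0.092, edgeR adjusted p = 0.143 in shRNF113A cells). Its treated and untreated libraries overlapped in shControl cells and not in shRNF113A cells.

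HSP90AA1 (chr14:102547075-102606023, minus strand) stood at 4017, 3321 and 3734 CPM in untreated shControl cells and at 3389, 3169 and 3110 CPM with Cisplatin (log2 fold change −0.20, SE 0.0812, edgeR adjusted p = 0.0582). In shRNF113A cells it rose from 2951, 2845 and 2882 CPM to 3304, 3318 and 3483 CPM (log2 fold change 0.22, SE 0.0812, edgeR adjusted p = 0.0334). The groups overlapped in the first case and not in the second. The fall of HSP90AA1 in shControl cells, where each treated library lay below the untreated one of the same number, was called with the replicate block among shControl libraries (edgeR adjusted p = 0.0352), with DESeq2 (adjusted p = 0.0172), with HTSeq counts (edgeR adjusted p = 0.0217) and with at least 10 counts in every library (edgeR adjusted p = 0.0422). Its rise in shRNF113A cells was lost with HTSeq counts (edgeR adjusted p = 0.0501) and with every gene that had a count kept (edgeR adjusted p = 0.0676). Among the 12 fits made without 1 library the rise was called in the 3 that lacked an untreated shControl library and lost in the other 9. HSPB1 (chr7:75931861-75933612, plus strand), the small heat shock protein HSP27, had 192, 193 and 218 CPM in untreated shControl cells and 237, 243 and 215 CPM with Cisplatin (log2 fold change 0.20, SE 0.0947, edgeR adjusted p = 0.0866). In shRNF113A cells it rose from 115, 124 and 131 CPM to 156, 138 and 173 CPM (log2 fold change 0.34, SE 0.0951, edgeR adjusted p = 0.00833), with no overlap.

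With STAR counts the mitochondrial pair fell with Cisplatin in shControl cells, and HSPD1 also in shRNF113A cells. HSPE1 was called lower there too with HTSeq counts, as given further on. HSPD1 (chr2:198351305-198381461, minus strand) stood at 1459, 1077 and 1260 CPM in untreated shControl cells and at 1128, 889 and 980 CPM with Cisplatin, groups that overlapped (log2 fold change −0.34, SE 0.112, edgeR adjusted p = 0.0209). In shRNF113A cells it fell from 1064, 986 and 1081 CPM to 826, 848 and 805 CPM (log2 fold change −0.34, SE 0.112, edgeR adjusted p = 0.0201). The call was lost in 3 of the 12 fits in each background, in shControl cells without replicate 1 of the untreated or replicate 2 or 3 of the treated libraries, and in shRNF113A cells without replicate 1 or 3 of the untreated or replicate 3 of the treated libraries. HSPE1 (chr2:198364718-198368181, plus strand), the cofactor that caps HSPD1, stood at 68.4, 55.2 and 70.7 CPM in untreated shControl cells and at 54.9, 41.2 and 51.8 CPM with Cisplatin (log2 fold change −0.39, SE 0.134, edgeR adjusted p = 0.025). This call was lost without replicate 1 or 3 of the untreated or replicate 2 of the treated shControl libraries. In shRNF113A cells HSPE1 had 47.9, 42.7 and 57.3 CPM untreated and 45.8, 45.3 and 42.0 CPM with Cisplatin (log2 fold change −0.15, SE 0.135, edgeR adjusted p = 0.347).

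Deviations of equally numbered shControl libraries from their group mean went together between untreated and Cisplatin-treated cells. With the replicate number as a block among the shControl libraries alone, 7 of the 10 genes were called in place of 5, HSP90AA1 and HSPA1A being added among the falls, where 61.9% of all genes were called. Without replicate 2 of the untreated shControl cells 8 were called, with HSP90AA1, HSPA1A and DNAJB1 lower, where 56.4% of all genes were called. Without replicate 2 of the Cisplatin-treated shControl cells only BAG3, HSPH1 and HSPA8 were called, against 54.6% of all genes. Without replicate 1 of the untreated shControl cells 3 were called, against 51.1%.

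**Figure D2:**
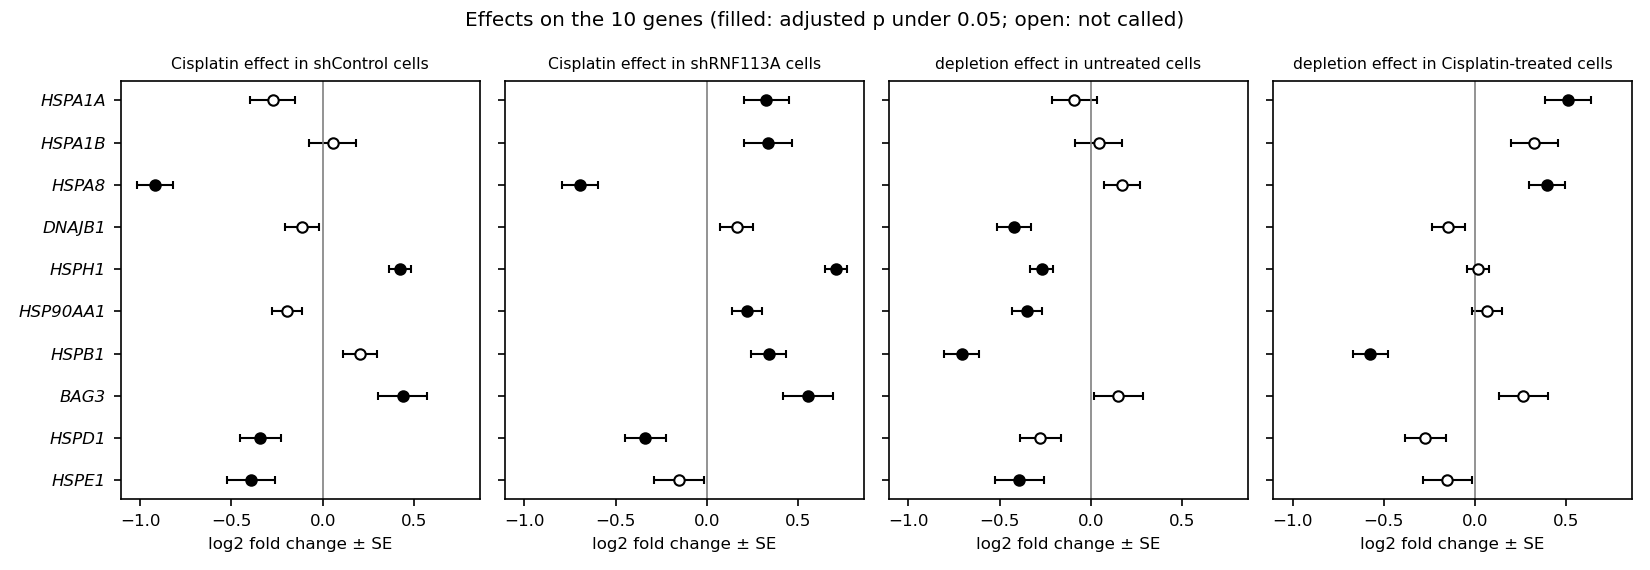
Log2 fold change (point) and SE (whisker) of the 10 genes in 4 panels from the edgeR fit, Cisplatin against untreated for each shRNA and shRNF113A against shControl for each treatment. Filled points passed an adjusted p of 0.05. HSPA8 and HSPH1 lie on opposite sides of 0 for Cisplatin in both backgrounds, and HSPB1 has the lowest point of the 10 for depletion with and without Cisplatin.

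Depletion of RNF113A lowered 5 of the 10 genes in untreated cells and raised none. Those called lower were HSPB1, DNAJB1, HSP90AA1, HSPH1 and HSPE1, where 14.6% of all genes were called lower and 12.8% higher, and the groups did not overlap for 4 of the 10 against 43.3% of all genes. HSPB1 lay between 192 and 218 CPM in shControl cells and between 115 and 131 CPM in shRNF113A cells (log2 fold change −0.71, SE 0.0953, edgeR adjusted p = 0.000234). DNAJB1 stood at 201, 161 and 215 CPM in shControl cells and at 139, 146 and 145 CPM in shRNF113A cells (log2 fold change −0.42, SE 0.092, edgeR adjusted p = 0.00533). HSP90AA1 (log2 fold change −0.35, SE 0.0813, edgeR adjusted p = 0.00741) and HSPH1 (−0.27, SE 0.0617, edgeR adjusted p = 0.00693) also fell with no overlap between the libraries given above. These 4 calls held in all 12 fits made without 1 library. HSPE1 overlapped between groups (log2 fold change −0.39, SE 0.134, edgeR adjusted p = 0.0465), and its call held in 4 of the 12 such fits. HSPD1 had a log2 fold change of −0.28 (SE 0.112, edgeR adjusted p = 0.085) and was called lower without replicate 2 of the untreated shControl cells. HSPA1A, HSPA1B, HSPA8 and BAG3 had log2 fold changes between −0.09 and 0.17 and were not called.

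In Cisplatin-treated cells depletion gave a different set of calls. HSPA1A and HSPA8 were higher in depleted cells and HSPB1 was lower, where 21.1% of all genes were called higher and 21.8% lower. The groups did not overlap for 7 of the 10 genes, against 57.7% of all genes. HSPB1 lay between 215 and 243 CPM in treated shControl cells and between 138 and 173 CPM in treated shRNF113A cells (log2 fold change −0.57, SE 0.0951, edgeR adjusted p = 0.000607). HSPA1A lay between 36.4 and 48.8 CPM and between 58.8 and 61.7 CPM (log2 fold change 0.51, SE 0.125, edgeR adjusted p = 0.00629), and HSPA8 between 1170 and 1403 CPM and between 1617 and 1736 CPM (log2 fold change 0.39, SE 0.0986, edgeR adjusted p = 0.00724). All 3 calls held in every fit made without 1 library. Replicate 2 of the untreated shControl cells enters this comparison through the shared estimate of the spread and the scaling. Without that library BAG3, HSPA1B and HSPD1 were called as well, where 50.2% of all genes were called. In the model without interaction depletion raised HSPA8 and lowered DNAJB1, HSPB1, HSPD1 and HSPE1, where 47.5% of all genes were called.

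None of the 10 genes passed the test of the difference between the Cisplatin effects in shRNF113A and shControl cells with edgeR, where 4.25% of all genes did. At an unadjusted p under 0.05 there were 3, HSP90AA1 (difference of log2 fold changes 0.42, SE 0.115, edgeR adjusted p = 0.0631), HSPA1A (0.60, SE 0.176, edgeR adjusted p = 0.0756) and HSPH1 (0.29, SE 0.0872, edgeR adjusted p = 0.0841). DESeq2 called the same 3 genes, where it called 9.63% of the genes given an adjusted p. All 10 differences were above 0, with a median of 0.258, and all rest on the same 12 libraries. Over all genes the median was 0.00143, and 0.241 when the sign was dropped. The shares of all genes above 0 and at an unadjusted p under 0.05 were not counted, so a shift of these genes as a set is not shown. Without replicate 2 of the untreated shControl cells, the library that was lowest for 9 of the 10 genes, edgeR called 4 genes, HSP90AA1, HSPA1A, HSPH1 and DNAJB1, where 9.95% of all genes were called. The other 11 fits made without 1 library called none. DNAJB1 had a difference of 0.28 with all libraries (SE 0.13, edgeR adjusted p = 0.243). The calls of HSPA1A and HSPA1B in shRNF113A cells are thus not shown to be particular to them.

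HSPE1 had fewer counts from STAR than from HTSeq. Its 1030 exonic bases on hg19 share 192 (18.6%) with HSPE1-MOB4, a read-through gene that joins HSPE1 with its neighbour MOB4, and STAR does not assign read pairs that fit more than 1 gene. How many read pairs of HSPE1 were lost this way was not tested, and the annotations behind both counts differ. HSPE1 received a mean of 1904 read pairs per library from STAR and of 7012 from the exonic HTSeq counts, a ratio of 0.271. For the other 9 genes this ratio lay between 1 and 1.04. With the HTSeq counts HSPE1 lay at 266, 230 and 258 CPM in untreated shControl cells, at 207, 163 and 177 CPM with Cisplatin, at 186, 189 and 198 CPM in untreated shRNF113A cells and at 156, 156 and 146 CPM with both. Each group then lay apart from the untreated shControl group. HSPE1 was called lower in all 4 comparisons with these counts, by a log2 fold change of −0.46 with Cisplatin in shControl cells (edgeR adjusted p = 0.000817), −0.32 in shRNF113A cells (edgeR adjusted p = 0.00798), −0.40 for depletion in untreated cells (edgeR adjusted p = 0.00664) and −0.25 in Cisplatin-treated cells (edgeR adjusted p = 0.0405). This alternative was added after the low STAR counts were seen.

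Reads in introns of the genes were measured next, since RNF113A belongs to the spliceosome. The ratio of intronic to exonic reads, the former being the reads within a gene less those within its exons, could be tested for 7 of the 10 genes. HSPA1A and HSPA1B have no intron, and for HSPE1 the reads on the whole gene were fewer than those on its exons. In Cisplatin-treated cells depletion raised the ratio of all 7 genes, where 81.5% of the 11488 genes tested were called higher. In untreated cells it raised 5 of 7, BAG3, DNAJB1, HSP90AA1, HSPA8 and HSPB1, where 28.2% of all genes were. This share ranged from 3.69% to 46.0% over the fits made without 1 library, being lowest without replicate 2 of the untreated shRNF113A cells and highest without replicate 3 of the Cisplatin-treated shControl cells, while 2 to 7 of the 7 genes were called. Cisplatin raised 5 of 7 in shRNF113A cells, where 64.6% of all genes rose and 0.766% fell, and none in shControl cells, where 17.5% rose and 1.2% fell.

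The introns of BAG3 held 2.46, 2.56 and 2.34 reads per 100 exonic reads in untreated shControl cells, 1.96, 1.95 and 3.08 with Cisplatin, 3.44, 4.11 and 3.92 in untreated shRNF113A cells and 5.51, 4.95 and 5.72 with both. Every depleted library lay above every control library for BAG3, which had the largest rise with depletion in Cisplatin-treated cells among the 7 genes (log2 change of the ratio 1.22, SE 0.194, edgeR adjusted p = 2.02e-05). HSPA8, with 0.281 to 0.285 in untreated shControl cells and 0.729 to 0.757 in Cisplatin-treated shRNF113A cells, rose by 0.95 in the same comparison (SE 0.165, edgeR adjusted p = 4.41e-05). The other rises there were 1.12 for HSP90AA1, 1.06 for HSPH1, 0.99 for DNAJB1, 0.81 for HSPD1 and 0.53 for HSPB1, all on the log2 scale, against a median of 0.96 over all genes. In untreated cells the changes of the 7 genes lay between 0.44 for HSPH1, which was not called, and 0.82 for HSPA8, against a median of 0.47. HSPB1 had the smallest rise of the 7 in Cisplatin-treated cells. Replicate 3 of the Cisplatin-treated shControl cells had the highest ratio of its group in 6 of the 7 genes. Without this library the median change of the ratio with Cisplatin in shControl cells over all genes was 0.079, against 0.286 with all libraries.

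HSPB1 went the other way with Cisplatin. It held 4.52, 5.35 and 3.85 intronic reads per 100 exonic reads in untreated shControl cells and 3.07, 3.29 and 3.23 with Cisplatin, and 6.77, 6.83 and 6.30 in untreated shRNF113A cells against 4.97, 5.05 and 3.89 with Cisplatin. No treated library reached an untreated one of the same shRNA. In shControl cells with Cisplatin the intronic reads of HSPB1 were 268, 322 and 316 and its exonic reads 8735, 9791 and 9790. The log2 change of the ratio was −0.51 in shControl cells (SE 0.175, edgeR adjusted p = 0.0457) and −0.52 in shRNF113A cells (SE 0.178, edgeR adjusted p = 0.0137), where the median of all genes was 0.29 and 0.75. Among the 12 fits made without 1 library the call in shControl cells held in 3 and that in shRNF113A cells in 11, being lost without replicate 3 of the treated cells. Other calls were lost without single libraries as well. That of BAG3 for depletion in untreated cells was lost without any 1 of the 6 untreated libraries.

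**Figure D3:**
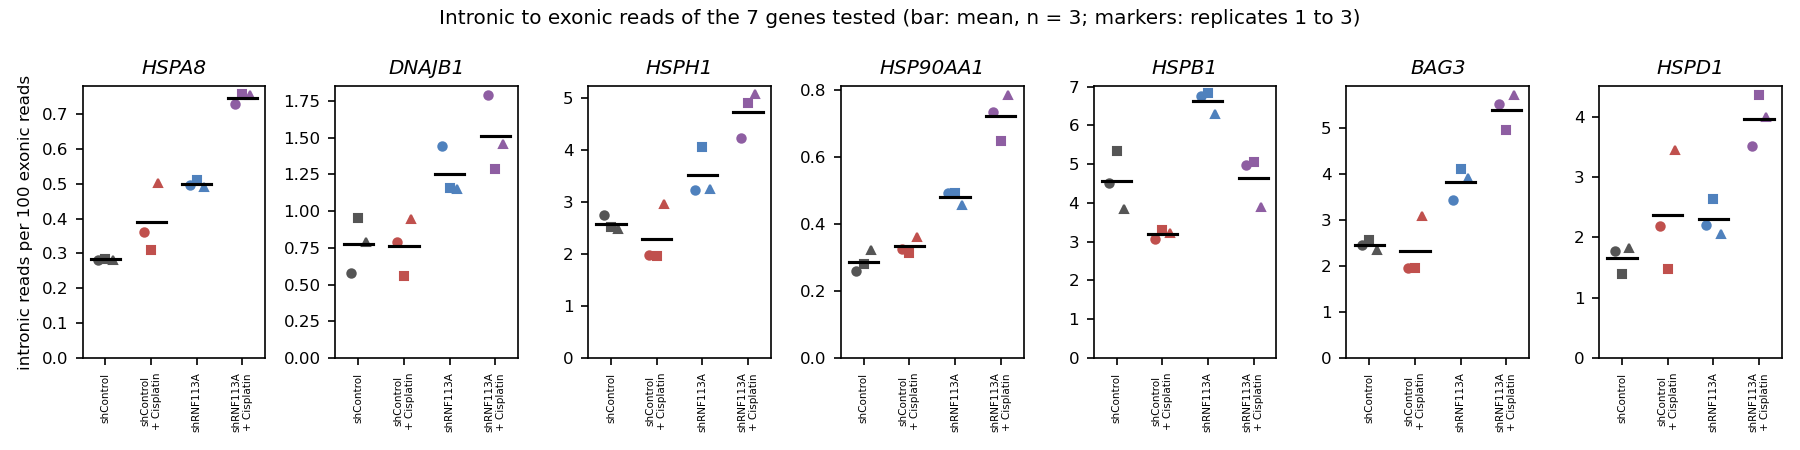
Intronic reads per 100 exonic reads of the 7 genes that could be tested, in each of the 12 libraries by group, with markers for the 3 replicates and a bar for the mean, and each panel has its own linear axis. The mean ratio is highest in Cisplatin-treated shRNF113A cells for every gene except HSPB1, where untreated shRNF113A cells are highest and Cisplatin lies below untreated for both shRNAs.

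Single splicing events of these genes were tested in the same comparisons. Across skipped exons, mutually exclusive exons, retained introns and alternative 5′ and 3′ splice sites, 31 to 38 events per comparison could be tested in 8 of the 10 genes, and none differed by an adjusted p under 0.05 with inclusion levels at least 10 percentage points apart. Of all events 0.183% did with Cisplatin in shControl cells, 0.804% with Cisplatin in shRNF113A cells, 0.225% with depletion in untreated cells and 0.58% with depletion in Cisplatin-treated cells, so that none among so few events is near the background. At an unadjusted p under 0.05 there were 15 of 138 results (10.9%), against 7.92% of all events over the 4 comparisons. The largest difference was 5.97 points for a skipped exon, 5.28 for an alternative 5′ splice site, 1.81 for mutually exclusive exons and 0.819 for a retained intron. Among 119 results of skipped exons 107 had over 50% inclusion, and the lowest mean inclusion among these was 94.03%.

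The event that passed an adjusted p of 0.05 was the retention of the last intron of HSPE1. This intron lies on hg19 at chr2:198367853-198367932, on the plus strand between its last 2 exons, spans 80 bases and has 27.5% G and C. Its sequence is shown with the splice site dinucleotides in capitals.
HSPE1 last intron: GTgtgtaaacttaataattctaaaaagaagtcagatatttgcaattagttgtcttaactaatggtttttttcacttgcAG
The intron was included in 0.484%, 0.314% and 0.405% of transcripts in the 3 untreated shControl libraries and in 0.520%, 0.413% and 0.822% with Cisplatin. In shRNF113A cells it was included in 0.829%, 1.06% and 0.776% untreated and in 1.14%, 1.33% and 1.75% with Cisplatin. Every depleted library lay above every control library of the same treatment, although most transcripts were spliced in all. Depletion raised the inclusion by 0.488 points in untreated cells (log2 odds 1.14, edgeR adjusted p = 0.00221) and by 0.819 points in Cisplatin-treated cells (log2 odds 1.26, edgeR adjusted p = 0.00397), where 17.4% and 26.0% of all retained introns were called. Cisplatin raised it by 0.516 points in shRNF113A cells (edgeR adjusted p = 0.0431) and gave a difference of 0.184 points in shControl cells (edgeR adjusted p = 0.744), where 15.7% and 0.493% were called. Over 8 alternatives the adjusted p ranged from 0.00197 to 0.0357 for depletion in untreated cells, from 9.6e-05 to 0.0558 in Cisplatin-treated cells, from 0.0257 to 0.245 for Cisplatin in shRNF113A cells and from 0.431 to 0.913 in shControl cells. The splicing tables do not name the libraries within a group, so these values carry no replicate number.

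**Figure D4:**
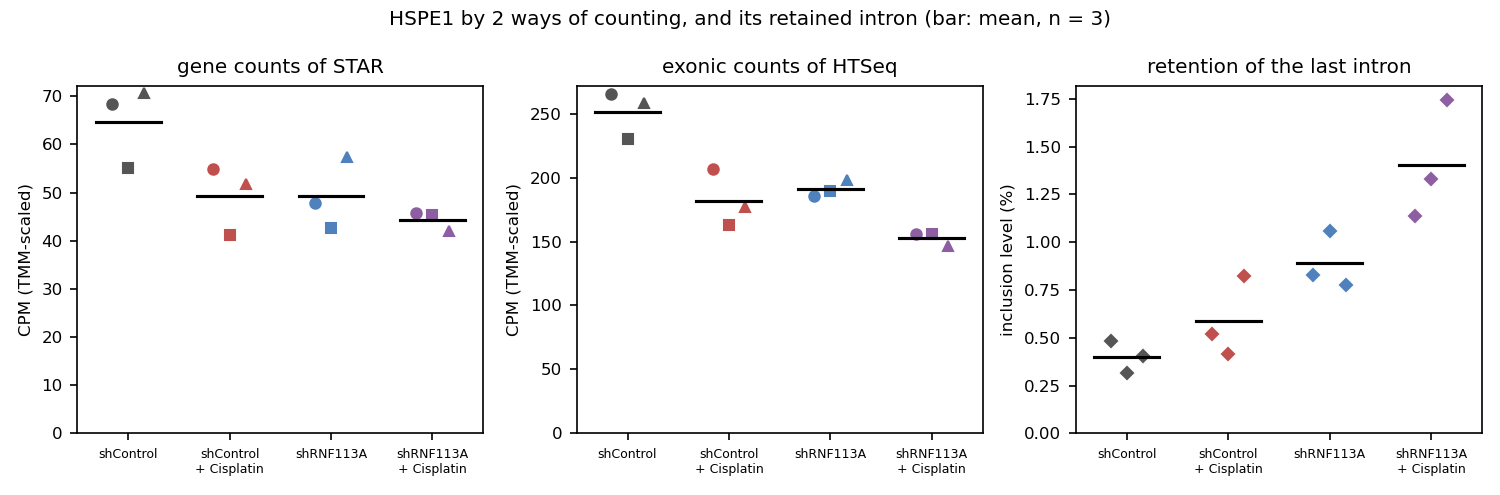
HSPE1 in the 12 libraries by group, as CPM from the STAR gene counts (left) and from the exonic HTSeq counts (middle), and as the percent inclusion of its last intron (right); bars are means of 3 libraries and all axes start at 0. The HTSeq levels are higher, and the untreated shControl libraries lie above all others there. The inclusion of the intron lies between 0.314% and 0.822% in shControl libraries and between 0.776% and 1.75% in shRNF113A libraries.

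The genes around the 10 give their setting. As above, 28.0% of all genes were higher and 27.0% lower with Cisplatin in shControl cells, 32.4% and 27.8% in shRNF113A cells, and 12.8% and 14.6% with depletion in untreated cells. Of 4 genes for heat shock factors and their binding protein, 3 rose with Cisplatin in shControl cells and 3 in shRNF113A cells. These were HSF1, HSF2 and HSF4, named after their values were seen, and HSF1, the main activator of heat shock genes, rose by 0.54 on the log2 scale in shControl cells (SE 0.0873, edgeR adjusted p = 0.000206) and by 0.44 in shRNF113A cells (SE 0.0873, edgeR adjusted p = 0.000798). Of 20 other genes widely described as induced by heat shock, 7 rose and 2 fell with Cisplatin in shControl cells and 8 rose and 1 fell in shRNF113A cells, with medians of 0.04 and 0.12. With depletion in untreated cells none rose and 5 fell, of which 3 are also in the list of HSP90 co-chaperones and 2, HSPB8 and CRYAB, in that of small heat shock proteins. Of 8 genes listed as small heat shock proteins beside HSPB1, 3 passed the filter, namely HSPB8, HSPB11 and CRYAB. All 3 were called lower with depletion in untreated cells, against 14.6% of all genes, but the call of CRYAB hung on single libraries. Whether HSPB11 works as a small heat shock protein was not tested. HSPB8, which works with BAG3, stood at 13.8, 16.8 and 16.3 CPM in untreated shControl cells and at 4.69, 5.12 and 5.57 CPM in untreated shRNF113A cells (log2 fold change −1.61, SE 0.124, edgeR adjusted p = 3.93e-06). With Cisplatin HSPB8 rose to 39.1, 37.5 and 36.4 CPM in shControl cells and to 24.6, 23.0 and 30.6 CPM in shRNF113A cells (log2 fold changes 1.27 and 2.35), and no library of one group reached those of another. HSPB11 fell by 0.52 on the log2 scale with depletion in untreated cells. The lens crystallin CRYAB had 0.470, 4.71 and 0.530 CPM in untreated shControl cells and 0.291, 0.263 and 0.215 CPM in untreated shRNF113A cells (log2 fold change −2.88, SE 0.993, edgeR adjusted p = 0.0487). Its call was lost without replicate 2 of the untreated shControl cells (log2 fold change −0.95, edgeR adjusted p = 0.443) and without any 1 shRNF113A library.

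Some relatives moved by 2-fold or more in at least 1 background, as none of the 10 genes did. HSPA6, an HSP70 gene that is silent in most unstressed cells, stood at 0.774, 0.739 and 0.955 CPM in untreated shControl cells and at 3.87, 3.15 and 2.77 CPM with Cisplatin (log2 fold change 1.98, edgeR adjusted p = 3.45e-05). In shRNF113A cells it stood at 0.794, 0.578 and 0.338 CPM untreated and at 4.52, 3.90 and 4.79 CPM with Cisplatin (log2 fold change 2.93, edgeR adjusted p = 1.71e-06). These levels correspond to 11 to 147 reads per library. HSPA4L, an HSP110 protein like HSPH1, rose from a mean of 36.2 to 176 CPM in shControl cells and from 34.01 to 116 CPM in shRNF113A cells (log2 fold changes 2.28 and 1.77). The J-domain genes DNAJB5 (log2 fold changes 2.07 and 1.75) and DNAJB2 (1.13 and 0.75) rose as well, and the HSP90 co-chaperone gene AHSA2 rose by 0.53 in shControl cells and 1.20 in shRNF113A cells. The peptidyl-prolyl isomerase FKBP5 fell by 0.83 and 1.01. SIL1, the nucleotide exchange factor of the HSP70 in the endoplasmic reticulum, fell from a mean of 32.8 to 7.93 CPM in shControl cells and from 39.6 to 7.49 CPM in shRNF113A cells (log2 fold changes −2.05 and −2.40). HSPA12B fell by 1.18 in shControl cells at 17 to 106 reads per library, a call that was lost without replicate 2 of the untreated or replicate 1 or 3 of the treated shControl libraries.

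Against the same shares of all genes, among the other J-domain proteins 8 of 15 rose and 1 fell with Cisplatin in shControl cells and 9 rose and 1 fell in shRNF113A cells. Of 16 HSP90 genes and co-chaperones 4 rose and 4 fell in shControl cells and 6 rose and 3 fell in shRNF113A cells. The subunits of the cytosolic chaperonin TRiC moved little, with 2 of 8 lower in shControl cells, 1 lower in shRNF113A cells and log2 fold changes between −0.30 and 0.13 in both. Of 12 mitochondrial chaperones and proteases 5 rose and 2 fell in shControl cells and 5 rose and 4 fell in shRNF113A cells. Of the 7 nucleotide exchange factors, BAG3 not being among them, 3 rose and 2 fell in each background. Of 6 prefoldin subunits 1 fell in each.

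**Figure D5:**
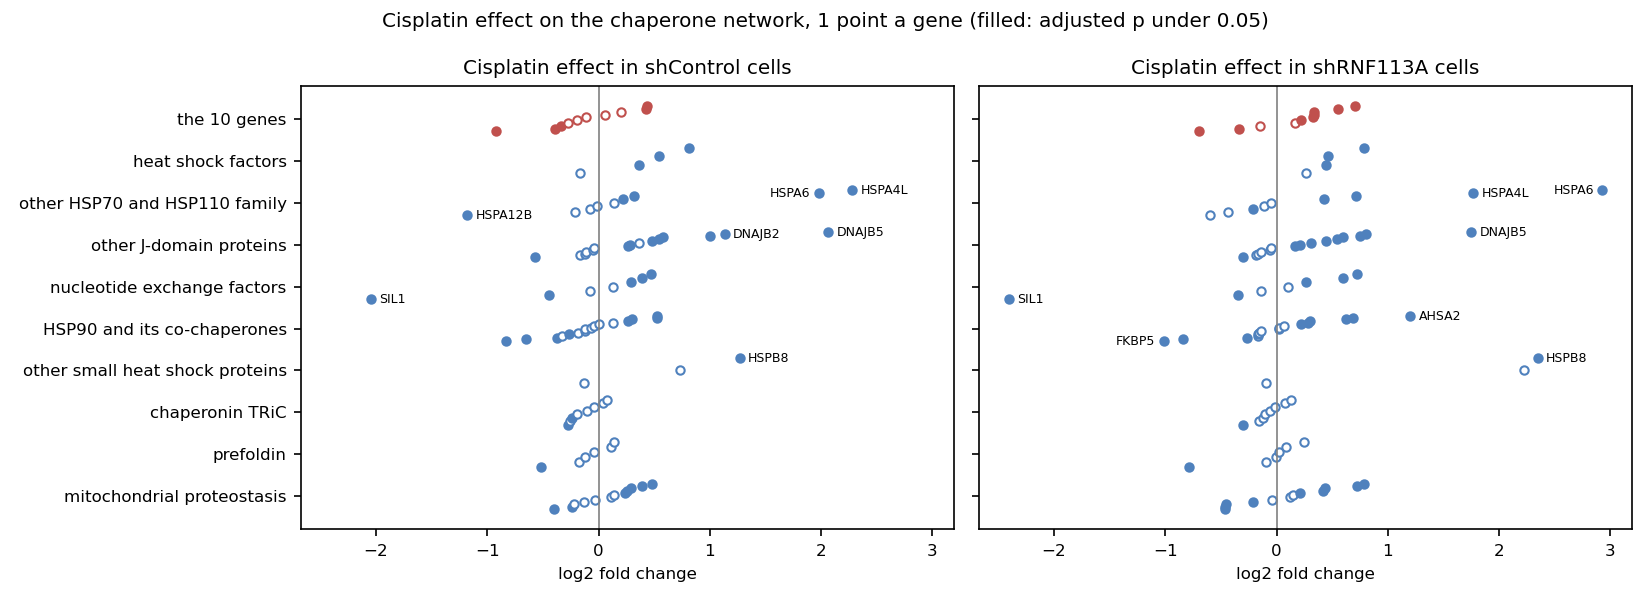
Log2 fold change with Cisplatin of the 10 genes (red) and of the other genes of 9 chaperone lists (blue) in shControl cells (left) and shRNF113A cells (right), 1 point a gene. Filled points passed an adjusted p of 0.05, and genes past it with a change of at least 2-fold are labelled. The 10 genes stay within 1 log2 unit of 0, while HSPA6, HSPA4L, DNAJB5, HSPB8 and SIL1 lie beyond it in both panels.

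Over the 12 libraries the 10 genes did not move as a block. HSPD1 and HSPE1 had the highest Pearson r between their log2 CPM, 0.888, followed by HSPA1A and HSPA1B with 0.861. DNAJB1 and HSP90AA1 had 0.839, HSPA1B and BAG3 0.838 and DNAJB1 and HSPB1 0.815, while HSPA8 and HSPH1 had −0.884. Among the 9769 candidates at a mean of 10 CPM or more, the gene most like HSPA8 was SAPCD2 (r of 0.986), that most like HSPH1 was AMMECR1L (0.987), that most like BAG3 was CDR2L (0.994) and that most like HSPD1 was XPO1 (0.976). For HSPB1 it was H3F3B (0.955), for HSPE1 PPIL3 (0.967), for HSPA1B CTTN (0.962), for DNAJB1 FOXA2 (0.941) and for HSP90AA1 POLR2C (0.923). These points share the 4 groups and their libraries, so the values describe likeness of profile over the groups.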

How the data were processed

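Poly(A) RNA of A549 cells was sequenced as stranded paired reads. Per the methods, the authors removed ribosomal, transfer and mitochondrial RNA reads, trimmed the rest to 73 nt and aligned them with STAR 2.5.2b to hg19. The deposited gene counts are whole read pairs, and the reverse-strand column of the STAR tables was used. The deposited HTSeq counts (exons and whole genes) and the inclusion and skipping counts of the authors' rMATS tables were also whole numbers. The rMATS tables also hold p-values, adjusted values and inclusion differences of the authors' own comparisons, which were not used.

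Groups were taken from the sample labels. Genes were filtered with filterByExpr, scaled by TMM and tested with edgeR 4.0.16 in R 4.3.3 (quasi-likelihood test, all 12 libraries, Benjamini-Hochberg adjustment over 15352 genes, called at 0.05), as 4 single-condition effects, the interaction and a model without it. The intronic to exonic ratio (HTSeq gene counts less exon counts, against exon counts, at least 1 of each in every library) was tested with a term for each library, and splicing events with at least 10 reads as inclusion against skipping reads, adjusted within each of 5 categories. DESeq2 1.42.0 was an alternative. The scripts were checked on simulated data, where calls had the simulated direction and fold changes were unbiased, and where the interaction missed more of the changed genes at low counts than the single effects did. Counts limit precision, and the 10 genes had from 1121 to 146117 read pairs per library.

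Genes named beside the 10 were mainly those of the other lists called with a change of at least 2-fold and the genes most alike in profile by Pearson r. HSF1, HSF2, HSF4, SPG7 and HSPB11 were named outside this rule, with smaller changes. Splicing events of the 10 were named at an adjusted p under 0.05. The gene most alike to HSPA1A is not reported here. The 10 genes and the lists were chosen with earlier results of these data known. Equally numbered shControl libraries deviated together between untreated and Cisplatin-treated cells (r of 0.632, 0.731 and 0.48), which comes from the data and not the labels. Among the shRNF113A libraries replicates 1 and 3 did so less strongly and replicate 2 did not (0.406, −0.0647 and 0.299). The fit with a replicate block among the shRNF113A libraries alone is not reported here.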

Additional observations from a re-analysis of the deposited data

Results flagged for a closer look

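In 3 genes of the chaperone lists the Cisplatin effect differed between shRNF113A and shControl cells by the interaction test. HSPB8 rose more in depleted cells, by 1.078 on the log2 scale (SE 0.169, edgeR adjusted p = 0.00979), from 1.27 in shControl cells to 2.35 in shRNF113A cells, and over 20 alternatives its adjusted p ranged from 5.31e-06 to 0.0382. SPG7, a mitochondrial protease subunit named here for this difference after its values were seen, rose more by 0.5265 (edgeR adjusted p = 0.0366), from 63.3 to 75.9 CPM in shControl cells and from 74.9 to 129 CPM in shRNF113A cells. Its adjusted p ranged from 0.00551 to 0.103 and passed in 10 of 20 alternatives. HSPA4L rose less in depleted cells, with a difference of −0.5079 (edgeR adjusted p = 0.05 as rounded, under the threshold), an adjusted p between 0.00593 and 0.122 and 9 of 20 alternatives past the threshold.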

How the results depend on the processing

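Of the 10 genes, the interaction called 1 with library size scaling (3.83% of all genes) and 1 with at least 10 counts in every library (5.4%). It called 3 with DESeq2, against the share given above, and 4 without replicate 2 of both shControl groups. That last setting and the HTSeq exonic counts were chosen after seeing the data. Cisplatin in shRNF113A cells gave 5 calls when every gene with a count was kept, where 43.3% of all genes were called. Depletion in Cisplatin-treated cells gave 5 with library size scaling, where 42.2% were called, and 5 with HTSeq counts. Without replicate 2 of both shControl groups there were 8 calls for Cisplatin in shControl cells and 6 for depletion in Cisplatin-treated cells. Leaving out 1 library at a time gave 3 to 8 calls for Cisplatin in shControl cells and 4 to 9 in shRNF113A cells. It gave 3 to 6 for depletion in Cisplatin-treated cells and 0 to 4 for the interaction. The share of all genes called moved between these fits as well. For the intronic ratio such fits gave 0 to 3 for Cisplatin in shControl cells, 3 to 6 in shRNF113A cells and 2 to 7 for depletion in untreated cells. The causes were not tested.

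Directions turned only for log2 values near 0 that were not called. HSPH1 for depletion in Cisplatin-treated cells was −0.005354 with unstranded counts, −0.02298 with DESeq2 and −0.01099 without replicate 2 of both shControl groups, where depletion in untreated cells gave −0.0638 for HSPA1B and −0.01534 for BAG3. Leaving out 1 library, HSPH1 ranged from −0.05612 to 0.01473 and HSP90AA1 from −0.01866 to 0.06272 for depletion in Cisplatin-treated cells, BAG3 from −0.01532 to 0.249 and HSPA1B from −0.06412 to 0.1394 for depletion in untreated cells, and HSPA1B from −0.05592 to 0.1627 for Cisplatin in shControl cells. The intronic ratio for Cisplatin in shControl cells ranged from −0.2012 to 0.1783 for DNAJB1 and from −0.3248 to 0.03492 for BAG3.

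With a replicate block over all libraries depletion gave 6 calls without Cisplatin (29.5% of all genes) and 4 with it (45.5%). HSPD1 was added in both. In the model without interaction depletion gave 6 calls, with BAG3 added, where 48.2% were called. For Cisplatin the block kept 5 calls in shControl cells and 8 in shRNF113A cells, where 57% and 62.3% were called. It gave 0 for the interaction, where 4.5% were called. No paired analysis was possible for splicing because the tables do not name the libraries. The comparison with the authors' rMATS adjusted values was not run. Library size scaling moved the median of all genes to 0.149 for Cisplatin in shRNF113A cells and to 0.0939 in shControl cells.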
